A study of Mus musculus with 6 samples.

Results

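The mitochondrial genome transcripts are the 37 genes of the deposited table whose names start with mt-, out of 54525 genes in all. They comprise 13 mRNAs, 2 rRNAs and 22 tRNAs. They were picked out by name and not by a measured value, though with earlier results of these data known. RNA was sequenced from naive CD4+ T cells of mouse lymph nodes and spleen that had been activated for 36 h with IL-2 and plate-bound antibodies to CD3 and CD28, the TH0 condition. There were 3 samples of wild-type mice (WT) and 3 of mice that lack *Abat* in T cells (*Abat* cKO), both labelled as C57BL/6N and 6 to 8 weeks old, with no further treatment. The *Abat* cKO strain carries a conditional *Abat* tm1a allele that was crossed to a Flippase strain and then to the *Cd4*-Cre strain, in which the *Cd4* promoter drives the recombinase in T cells. WT mice were C57BL/6 and are not described as littermates, and cells of the 2 genotypes were activated and harvested separately, so genotype, mouse line and culture cannot be told apart. *Abat* encodes GABA transaminase, a mitochondrial enzyme that degrades GABA and has also been linked to the supply of nucleotides for mitochondrial DNA.

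In mammals the mitochondrial genome is a small circle that is transcribed from both strands into long precursor RNAs. The tRNAs lie between most of the mRNAs and rRNAs, and their excision by the RNase P complex and ELAC2 releases the RNAs on either side. The mRNAs encode core subunits of complexes I, III, IV and V of the respiratory chain, whose other subunits come from the nucleus, and the rRNAs and tRNAs serve to translate them inside the organelle. Activated T cells are known to expand their mitochondria as they leave quiescence.

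Between the genotypes 3 of the 16 mitochondrial transcripts that could be tested were lower in *Abat* cKO T cells and 0 were higher, beside 13.4% lower and 18.1% higher among all genes tested. Counts over *mt-Tt*, the gene of the tRNA for threonine, were at 34.6% to 50.6% of the WT mean in the *Abat* cKO samples. The complex I mRNAs *mt-Nd1* and *mt-Nd2* were lower by smaller amounts. The mRNA with the most counts, *mt-Co1*, and *mt-Cytb* overlapped between genotypes, as did the share of all counts that the 37 genes held. A stretch of the genome that holds 6 of the mRNAs had at most 91 counts per gene and sample in either genotype.

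Because the *mt-Tt* result rests on a short gene between 2 close neighbours, its sequence and that of the next gene are shown. Both are 67 bases long in the GENCODE transcripts for GRCm38 and are printed 5′ to 3′ with the anticodon in capitals, at bases 31 to 33. *mt-Tt* lies on the plus strand at chrM:15289-15355, with 0 bases between it and *mt-Cytb* upstream and 0 bases between it and *mt-Tp*, and *mt-Tp* lies on the minus strand at chrM:15356-15422.
mt-Tt: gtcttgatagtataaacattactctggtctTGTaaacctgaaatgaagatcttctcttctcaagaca
mt-Tp: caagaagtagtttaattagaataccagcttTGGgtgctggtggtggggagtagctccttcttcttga

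Part of the mitochondrial genome has a close copy in nuclear DNA, which is shown because a read from either may have the same sequence. The nuclear copy lies on the minus strand of chr1:24611535-24616197, a span of 4663 bases that corresponds to chrM:6381-11043. It is annotated as 7 unprocessed pseudogenes, which lie in the same order and at the same spacing, to within 1 base, as the mitochondrial genes they match. Over 4149 aligned bases the pseudogenes and the mitochondrial genes differed at 7 positions. The 5 copies of *mt-Co2* (*Gm28661*), *mt-Atp6* (*Gm10925*), *mt-Co3* (*Gm28437*), *mt-Nd4l* (*Gm10222*) and *mt-Nd4* (*Gm28439*) were identical over their whole length, and the copies of *mt-Nd3* and *mt-Co1* carried the differences. The first 60 aligned bases of those 2 are given in the direction of the gene, with the differing bases in capitals. Positions are counted from 1 at the first base of the mitochondrial gene, and the mitochondrial base is given first.
mt-Nd3: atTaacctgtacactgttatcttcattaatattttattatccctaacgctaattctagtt
Gm28438: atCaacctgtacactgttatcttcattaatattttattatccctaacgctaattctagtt
mt-Co1: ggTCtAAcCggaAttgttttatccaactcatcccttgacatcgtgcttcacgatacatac
Gm29216: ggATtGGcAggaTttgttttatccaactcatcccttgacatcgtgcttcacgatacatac
The *mt-Nd3* line is chrM:9459-9518 and its copy is chr1:24613060-24613119, with the single change T3C. The *mt-Co1* line is chrM:6381-6440, from base 1054 of the gene, and its copy is chr1:24616138-24616197, with T1056A, C1057T, A1059G, A1060G, C1062A and A1066T all within the first 13 bases of the copy. Within the aligned parts, a stretch of 100 bases that falls outside those positions has the same sequence in mitochondrial and in nuclear DNA. By the study's methods the reads were paired and longer than that, so a read or its mate may reach beyond such a stretch. The share of reads that match both places was not measured.

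The depth of the 6 libraries was similar. Counts over genes summed to between 20120057 and 24396746 in WT and to between 19566016 and 21772348 in *Abat* cKO. The cells carried CD4 T cell markers at a summed 2359 to 2469 CPM (counts per 1000000 gene counts) in WT and 2027 to 2133 CPM in *Abat* cKO, with 0 of the 6 at 0. *Abat* itself had 5, 1 and 0 counts in WT and 7, 3 and 2 in *Abat* cKO, too few to check the labels. WT replicate 3 and *Abat* cKO replicate 1 stood apart from the other samples of their groups: the chi-square per gene was 6.21 to 9.46 in the within-group pairs that held one of them, against 2.14 and 2.48 in the remaining WT and *Abat* cKO pairs. Where leaving out either sample changed the call of a mitochondrial transcript or the sign of its log2 fold change, the value without it is given.

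The 37 mitochondrial genes held 0.652%, 0.729% and 0.782% of all gene counts in WT replicates 1, 2 and 3 and 0.763%, 0.686% and 0.596% in *Abat* cKO replicates 1, 2 and 3. The genotypes overlapped, with means of 0.721% ± 0.0653 and 0.682% ± 0.0836 (SD, n = 3 each). Relative to the 92 spike-in controls, the ratio of mitochondrial to spike-in counts was 0.688, 0.885 and 0.771 in WT and 0.846, 0.719 and 0.637 in *Abat* cKO, which also overlapped. In bulk RNA, fewer mitochondrial genomes per cell and less RNA per genome cannot be told apart. Nearly all of these counts were on mRNAs: the 22 tRNAs together held 0.00292% to 0.00314% of gene counts in WT and 0.00215% to 0.00264% in *Abat* cKO, ranges that did not overlap. Without *mt-Tt* the other 21 tRNAs overlapped, at 0.00210% to 0.00232% in WT and 0.00180% to 0.00224% in *Abat* cKO.

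The 2 rRNAs, *mt-Rnr1* and *mt-Rnr2*, form the core of the small and large mitochondrial ribosomal subunits. Both had 0 counts in all 6 samples, over annotated lengths of 955 and 1582 bases, so no comparison was possible for them. By sampling alone, a count of 0 allows up to 3 counts in the library, which is 0.123 CPM in the deepest sample and 0.153 CPM in the shallowest. This bound sets no limit on the level in the cells. The libraries were depleted of ribosomal RNA before sequencing, and whether mitochondrial rRNA was among the targets is not stated.

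**Figure D1:**
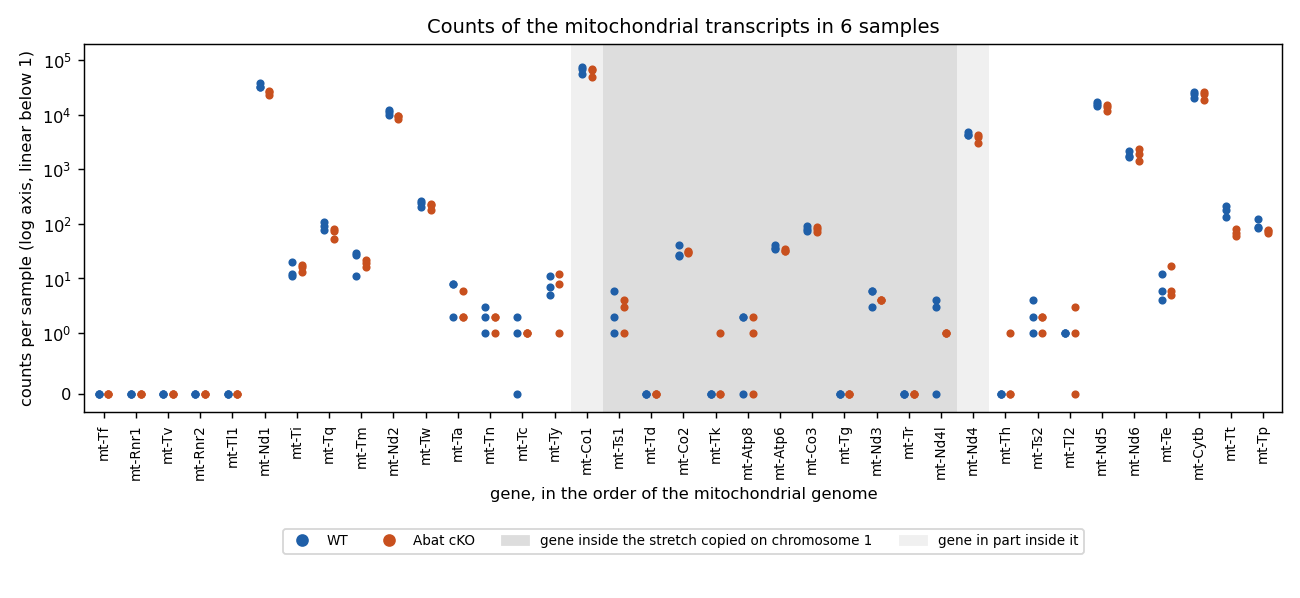
Counts of the 37 mitochondrial genes in each sample (vertical axis, logarithmic above 1 count) in their order along the mitochondrial genome (horizontal axis), with WT and *Abat* cKO samples as blue and orange points. The 6 mRNAs inside the stretch copied on chromosome 1 (dark grey) had 0 to 91 counts, the 2 in part inside it (light grey) had 3056 to 75174, and the 5 outside it had 1407 to 38111.

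The level of the mRNAs fell into 2 separate ranges. The 5 mRNAs outside the copied stretch, *mt-Nd1*, *mt-Nd2*, *mt-Nd5*, *mt-Nd6* and *mt-Cytb*, had between 1407 and 38111 counts in every sample. The 2 that lie in part inside it, *mt-Co1* and *mt-Nd4*, had between 3056 and 75174. The 6 that lie wholly inside it, *mt-Co2*, *mt-Atp8*, *mt-Atp6*, *mt-Co3*, *mt-Nd3* and *mt-Nd4l*, had between 0 and 91. Of the tRNAs, the 5 inside the stretch (*mt-Ts1*, *mt-Td*, *mt-Tk*, *mt-Tg* and *mt-Tr*) had 0 to 6 counts and the 17 outside it had 0 to 263. Low tRNA counts were not confined to the stretch: 14 of the 22 tRNAs had under 10 counts in every sample, the 5 inside it among them.

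Of all windows of 100 bases in each mRNA, the share found unchanged in a nuclear transcript of the annotation was 99.9% for *mt-Co3*, 99.5% for *mt-Co2*, 99.5% for *mt-Atp6*, 98.5% for *mt-Nd4l* and 97.6% for *mt-Nd3*. These 5 mRNAs had levels of 0.165 to 4.98 CPM per kilobase as group means. The share was 60.8% for *mt-Nd4*, 30.8% for *mt-Co1* and 3.19% for *mt-Nd2*, whose group means were 133 to 1972 CPM per kilobase. It was 0% for *mt-Nd1*, *mt-Nd5*, *mt-Nd6*, *mt-Cytb* and *mt-Atp8*. *mt-Atp8* was low, at 0.310 and 0.248 CPM per kilobase, although no whole window of it was found in a nuclear transcript. It lies within the copied span, and only the 43 bases it shares with *mt-Atp6* fall in an annotated pseudogene (*Gm10925*). The pseudogenes themselves had few counts, from 59 to 85 per sample for *Gm28437* and 43 to 66 for *Gm28438* down to 0 to 5 for *Gm28439*. Of the 4 pseudogenes that could be tested, 0 passed between the genotypes in edgeR, 0 had an unadjusted p under 0.05 and 0 passed in DESeq2, with adjusted p from 0.25 for *Gm28437* to 0.63 for *Gm28438* in edgeR. How the counting treated reads that match 2 places is not settled in the sources used here, and its part in these levels was not tested, so the levels of the 6 mRNAs inside the stretch, and of *mt-Co1* and *mt-Nd4* in part, are uncertain.

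**Figure D2:**
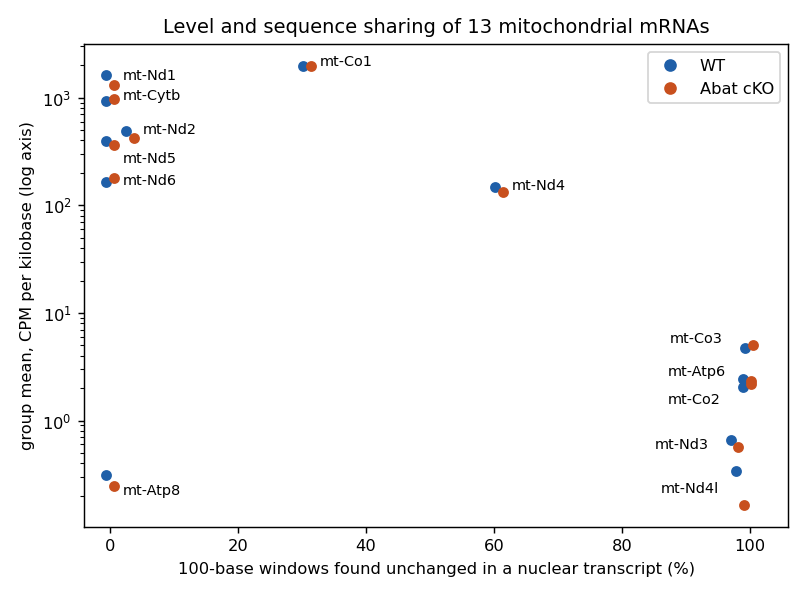
Group mean level of the 13 mitochondrial mRNAs in CPM per kilobase (vertical axis, logarithmic) against the percent of their 100-base windows found unchanged in a nuclear transcript (horizontal axis), with WT in blue and *Abat* cKO in orange. The 5 mRNAs with at least 97.6% of windows shared lie at or below 4.98 CPM per kilobase, and *mt-Atp8* is as low with 0% shared.

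Per length and as counted, *mt-Co1* and *mt-Nd1* were the highest. *mt-Co1*, a catalytic subunit of cytochrome c oxidase, was at 1972 ± 281 CPM per kilobase in WT and 1953 ± 305 in *Abat* cKO (SD, n = 3 each). *mt-Nd1*, a membrane subunit of complex I, was at 1610 ± 83.8 in WT and 1318 ± 56.6 in *Abat* cKO, and its WT range overlapped that of *mt-Co1*. *mt-Cytb*, the only mitochondrial subunit of complex III, followed at 934 ± 112 CPM per kilobase in WT, *mt-Nd2* at 493 ± 6.79 and *mt-Nd5* at 393 ± 2.96, each with a WT range apart from its neighbours. *mt-Nd6* (163 ± 11.8) and *mt-Nd4* (147 ± 5.42) did not differ beyond their spread. The order from *mt-Co1* down to *mt-Nd3* was the same in *Abat* cKO. *mt-Co1* alone held 40.0% to 45.6% of the counts of the 13 mRNAs. The 6 mRNAs inside the copied stretch had at most 91 counts each per sample. This order and share describe the counts as deposited, since the levels of those 6, and of *mt-Co1* and *mt-Nd4* in part, are uncertain.

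Differences between genotypes were tested with edgeR's quasi-likelihood test over the 13605 genes that passed a filter on low counts. The p-values were adjusted over all of those genes, and 31.5% of them passed the threshold of 0.05, 18.1% as higher in *Abat* cKO and 13.4% as lower. The filter kept 16 mitochondrial transcripts, 10 mRNAs and 6 tRNAs, which all had at least 10 counts in every sample. The 2 rRNAs, 3 mRNAs and 16 tRNAs left out had at most 17 counts in any sample. Of the 16, 3 were lower (18.75%, beside 13.4% of all genes), 0 were higher (beside 18.1%) and 13 did not pass. At an unadjusted p under 0.05 edgeR also gave 3 lower and 0 higher, as did DESeq2 with adjusted p-values. Their median log2 fold change was -0.05, with 6 positive and 10 negative, beside a median of 0.00 over all genes tested.

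The complex I mRNAs are taken first. *mt-Nd1* (chrM:2751-3707, plus strand) is the first mRNA downstream of the rRNAs. It had 1452, 1562 and 1608 CPM in WT replicates 1, 2 and 3 and 1312, 1269 and 1204 CPM in *Abat* cKO. Every *Abat* cKO sample lay below every WT sample, as was so for 20.5% of all genes tested. The log2 fold change was -0.25 ± 0.05 (SE), a ratio of 0.839, and the adjusted p was 0.00187 in edgeR. *mt-Nd1* passed under 15 of 17 alternatives and did not pass when counts were scaled to the spike-ins (adjusted p = 0.053) or to the mitochondrial mRNAs themselves (0.52). The log2 fold change under these scalings was -0.30 and -0.20.

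*mt-Nd2* (chrM:3914-4951, plus strand), another membrane subunit, had 517, 514 and 503 CPM in WT and 468, 432 and 426 CPM in *Abat* cKO, again with no overlap. The log2 fold change was -0.18 ± 0.05 (SE) and the adjusted p was 0.0154 in edgeR. The call was lost under 5 of 17 alternatives. These were scaling to the spike-ins (adjusted p = 0.20) or to the mitochondrial mRNAs (0.74) and leaving out WT replicate 1 (0.072), *Abat* cKO replicate 2 (0.075) or *Abat* cKO replicate 3 (0.058). The log2 fold change stayed between -0.24 and -0.13 in all 17.

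The 3 other complex I mRNAs with many counts overlapped between genotypes. *mt-Nd4*, a proton-pumping subunit, had 195, 203 and 210 CPM in WT and 214, 179 and 156 CPM in *Abat* cKO, and its log2 fold change was -0.11 (adjusted p = 0.41 in edgeR). *mt-Nd5*, a further proton-pumping subunit, had 712, 717 and 722 CPM in WT and 747, 647 and 611 CPM in *Abat* cKO, and its log2 fold change was -0.07 (adjusted p = 0.47 in edgeR). In both genes *Abat* cKO replicate 1 was the highest of the 6 samples and the other *Abat* cKO samples were the lowest. Without that sample both genes passed, lower in *Abat* cKO, with adjusted p of 0.0067 for *mt-Nd4* and 0.0085 for *mt-Nd5* in edgeR. They also passed when WT replicate 3 was left out as well.

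*mt-Nd6* is the single mRNA on the minus strand (chrM:13552-14070), and it shares 14 bases with *mt-Nd5* on the opposite strand. It had 78.8, 91.0 and 84.1 CPM in WT and 120, 89.6 and 71.9 CPM in *Abat* cKO, so the *Abat* cKO samples reached both above and below the WT range. The log2 fold change was 0.18 ± 0.15 (SE), with an adjusted p of 0.38 in edgeR. It passed in 1 of 17 alternatives, the fit that kept every row with a count (adjusted p = 0.0070), and it was below 0 in some others, at -0.03 without *Abat* cKO replicate 1 and -0.05 without WT replicate 3 as well. As a percent of the other 12 mRNAs, which are read from the plus strand, *mt-Nd6* counts were 1.23%, 1.27% and 1.09% in WT and 1.61%, 1.33% and 1.23% in *Abat* cKO. The highest value was again that of *Abat* cKO replicate 1, and the difference of the means was 0.191 percentage points with all samples and 0.0800 without it. Whether the counting used strand is not stated, so reads of *mt-Nd6* and of antisense RNA cannot be told apart.

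The other 2 complex I mRNAs lie in the copied stretch and were too low to test. *mt-Nd3* had 6, 3 and 6 counts in WT and 4, 4 and 4 in *Abat* cKO, and *mt-Nd4l* had 4, 3 and 0 in WT and 1, 1 and 1 in *Abat* cKO. *mt-Nd4l* also shares 7 bases with *mt-Nd4*.

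The mRNA of complex III, *mt-Cytb* (chrM:14145-15288, plus strand), had 934, 1081 and 1190 CPM in WT and 1306, 1096 and 957 CPM in *Abat* cKO. The groups overlapped widely, and the log2 fold change was 0.10 with a 95% interval from -0.13 to 0.34 (adjusted p = 0.51 in edgeR). Without *Abat* cKO replicate 1, its highest sample, the log2 fold change was -0.02. *mt-Cytb* ends at the base before *mt-Tt*.

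Among the complex IV mRNAs, *mt-Co1* (chrM:5328-6872, plus strand) had 2595, 3081 and 3462 CPM in WT and 3430, 3119 and 2503 CPM in *Abat* cKO. The lowest and the highest samples of both groups nearly coincided, and the log2 fold change was 0.02 with a 95% interval from -0.23 to 0.27 (adjusted p = 0.91 in edgeR). It was -0.08 without *Abat* cKO replicate 1. *mt-Co2*, which carries the copper centre that accepts electrons from cytochrome c, had 27, 41 and 26 counts in WT and 30, 32 and 29 in *Abat* cKO. *mt-Co3*, the third mitochondrial subunit, had 74, 91 and 81 counts in WT and 71, 88 and 81 in *Abat* cKO. Both had a log2 fold change of 0.11 and neither passed, with standard errors of 0.24 and 0.15.

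The 2 mRNAs of complex V, the ATP synthase, overlap each other by 43 bases. *mt-Atp6*, a subunit of the proton channel, had 36, 41 and 34 counts in WT and 32, 32 and 34 in *Abat* cKO, and its log2 fold change was -0.03 ± 0.22 (SE), which did not pass. *mt-Atp8* had 2, 0 and 2 counts in WT and 1, 0 and 2 in *Abat* cKO and was not tested. Adding the counts of the pseudogenes to those of the genes they match, an alternative chosen after seeing the data, changed no call among the 16 transcripts.

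**Figure D3:**
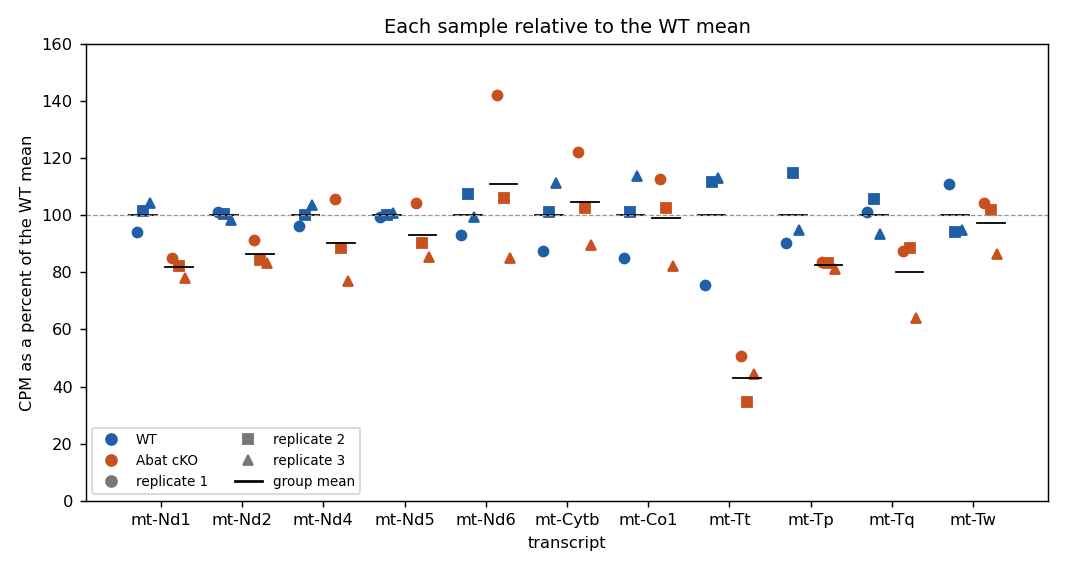
CPM of each sample as a percent of the WT mean (vertical axis) for the 7 mRNAs and 4 tRNAs with the most counts (horizontal axis), with WT in blue, *Abat* cKO in orange, a marker shape for each replicate number and a black line at each group mean. The *Abat* cKO samples of *mt-Tt* lie between 34.6% and 50.6%, those of *mt-Nd1* between 78.1% and 85.1%, and those of *mt-Nd6* spread from 85.0% to 142%.

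The abundant mRNAs differed in how closely the samples of a group lay together. In WT the coefficient of variation of the CPM was 0.753% for *mt-Nd5*, 1.38% for *mt-Nd2*, 3.69% for *mt-Nd4*, 5.20% for *mt-Nd1* and 7.23% for *mt-Nd6*, and it was 12.03% for *mt-Cytb* and 14.3% for *mt-Co1*. In *Abat* cKO it was 4.29% for *mt-Nd1*, 5.07% for *mt-Nd2*, 10.5% for *mt-Nd5*, 15.6% for *mt-Co1*, 15.7% for *mt-Cytb*, 15.96% for *mt-Nd4* and 26.1% for *mt-Nd6*. The complex I mRNAs at the start of the genome were the least variable of the 7 in *Abat* cKO. The ratio of *mt-Nd1* to *mt-Cytb* counts within a sample does not depend on the scaling of the libraries. It was 1.55, 1.44 and 1.35 in WT and 1.005, 1.158 and 1.26 in *Abat* cKO, with no overlap. The ratio of *mt-Nd1* to *mt-Co1* counts did overlap, at 0.560, 0.507 and 0.465 in WT and 0.382, 0.407 and 0.481 in *Abat* cKO.

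The tRNAs held few counts. Of the 22, 6 had 0 counts in all 6 samples, 14 had under 10 counts in every sample (those 6 among them) and 6 had at least 10 counts in every sample. The other 2 reached 10 counts in some samples only and were not tested. They were *mt-Te*, for glutamate, with 4, 6 and 12 counts in WT and 17, 5 and 6 in *Abat* cKO, and *mt-Ty*, for tyrosine, with 11, 5 and 7 in WT and 12, 8 and 1 in *Abat* cKO. A count over a tRNA may come from the mature tRNA or from a precursor that still holds it, and the table does not separate these. By the study's methods the reads were paired and longer than a tRNA gene, so a read may reach into a neighbouring gene. Whether the counting used strand is not stated, so antisense RNA cannot be told apart either.

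*mt-Tt*, the tRNA for threonine, had 133, 217 and 181 counts in WT replicates 1, 2 and 3 and 81, 60 and 69 in *Abat* cKO. As CPM these were 6.01, 8.895 and 8.996 in WT and 4.03, 2.76 and 3.53 in *Abat* cKO, means of 7.97 ± 1.69 and 3.44 ± 0.644 (SD, n = 3 each). The highest *Abat* cKO sample lay below the lowest WT sample. The log2 fold change was -1.18 ± 0.19 (SE), a ratio of 0.441, and the adjusted p was 0.00103 in edgeR. *mt-Tt* passed under all 17 alternatives, with a log2 fold change from -1.34 to -1.04 and an adjusted p of at most 0.00713.

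The genes that touch *mt-Tt* in the sequence, *mt-Cytb* and *mt-Tp*, did not pass. Per 1000 *mt-Cytb* counts in the same sample there were 6.44, 8.23 and 7.56 *mt-Tt* counts in WT and 3.09, 2.52 and 3.68 in *Abat* cKO. *mt-Tp*, the tRNA for proline on the opposite strand, had 87, 122 and 83 counts in WT and 73, 79 and 69 in *Abat* cKO. Its CPM did not overlap between genotypes (3.933 to 5.001 in WT and 3.53 to 3.64 in *Abat* cKO), but its log2 fold change of -0.24 ± 0.15 (SE) did not pass (adjusted p = 0.27 in edgeR). The ratio of *mt-Tt* to *mt-Tp* counts was 1.53, 1.78 and 2.18 in WT and 1.11, 0.759 and 1 in *Abat* cKO, again with no overlap. These ratios are descriptions and carry no test.

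The remaining 4 tested tRNAs lie between *mt-Nd1* and *mt-Co1*. *mt-Tw*, for tryptophan, was the most abundant tRNA, with 263, 246 and 204 counts in WT and 224, 237 and 181 in *Abat* cKO, and its log2 fold change was 0.00 with a 95% interval from -0.24 to 0.23. *mt-Tq*, for glutamine and on the minus strand, had 93, 107 and 78 counts in WT and 73, 80 and 52 in *Abat* cKO. Its scaled groups did not overlap, and its log2 fold change of -0.29 did not pass (adjusted p = 0.24 in edgeR). *mt-Ti*, for isoleucine, had 11, 20 and 12 counts in WT and 18, 13 and 16 in *Abat* cKO, and *mt-Tm*, for methionine, had 29, 27 and 11 in WT and 19, 22 and 16 in *Abat* cKO, with log2 fold changes of 0.29 and -0.07 and standard errors of 0.33 and 0.35. *mt-Ti* shares 2 bases with *mt-Nd1* and 3 with *mt-Tq*, and *mt-Tw* shares 2 with *mt-Nd2*. Counts over bases that 2 genes share are uncertain.

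**Figure D4:**
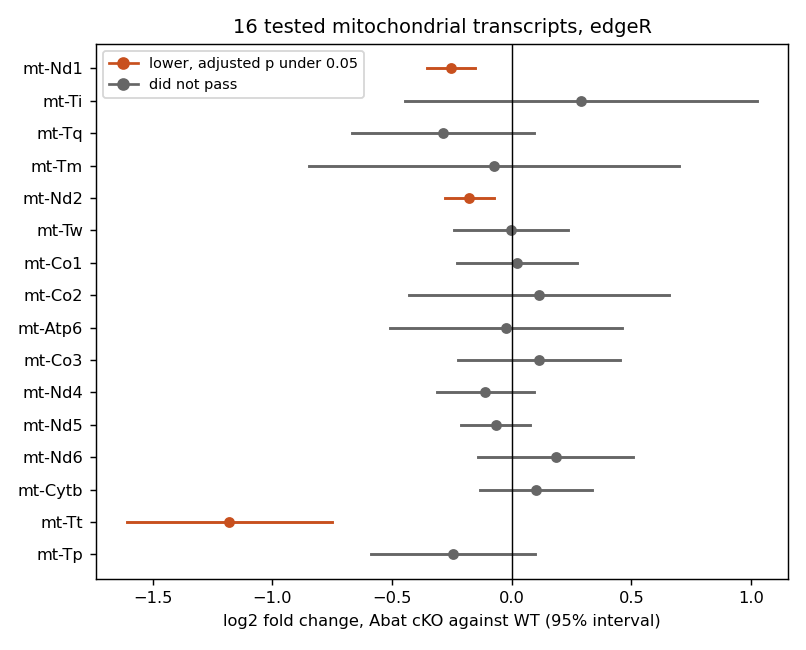
Log2 fold change of the 16 tested mitochondrial transcripts in *Abat* cKO against WT (horizontal axis) with its 95% interval from edgeR, in the order of the genome (vertical axis). *mt-Tt* at -1.18, *mt-Nd1* at -0.25 and *mt-Nd2* at -0.18 passed (orange), and the other 13 did not (grey).

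Markers of other cell types also differed between genotypes. Summed B cell markers (5 genes) were at 5.57 to 19.8 CPM in WT and 3.29 to 3.83 CPM in *Abat* cKO, and 4 of the 5 were lower. Summed CD8 markers (2 genes) were at 7.70 to 24.3 CPM in WT and 5.52 to 6.43 CPM in *Abat* cKO, and both were lower. In both lists WT replicate 3 was the lowest WT sample. NK cell markers (3 genes) were at 0.249 to 0.738 CPM in WT and 1.64 to 2.53 CPM in *Abat* cKO, and gamma delta T cell markers (3 genes) at 2.53 to 4.22 CPM in WT and 7.57 to 7.62 CPM in *Abat* cKO, with both tested genes of each list higher. Of the CD4 T cell markers, 4 of 6 were lower, and the list's median log2 fold change was -0.22. Among all genes tested, 13.4% were lower and 18.1% were higher. Myeloid markers stayed at or below 1.84 CPM and erythroid markers at or below 0.0919 CPM in summed level, and all 5 erythroid markers were at 0 in 4 of the 6 samples. The part of these cells in the results for *mt-Tt*, *mt-Nd1* and *mt-Nd2* was not tested.

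Nuclear genes that make, process and use mitochondrial RNA were counted from lists by role. Over 4 lists of the expression machinery, 81 of 82 genes were tested, of which 3 were higher and 11 lower, while 67 did not pass. That is 17.3% called, beside 31.5% of all genes, and the median log2 fold change was -0.02. Of 17 tested genes for transcription and DNA packaging, 1 was higher and 3 were lower, which is 23.5% called beside the same 31.5%. *Tfb1m*, which methylates the small rRNA, fell by 0.31 on the log2 scale (adjusted p = 0.00715 in edgeR), with 405, 414 and 375 counts in WT and 283, 323 and 264 in *Abat* cKO, and passed under 16 of the 17 alternatives. *Tfb2m*, a transcription initiation factor, had a log2 fold change of -0.21, *Mrpl12*, a ribosomal protein that has been found to bind the polymerase, of -0.16, and *Nrf1*, a nuclear regulator of such genes, of 0.19. *Tfb2m* and *Mrpl12* passed under 11 each and *Nrf1* under 10. Chosen after their values were seen, *Polrmt*, the RNA polymerase itself, and *Tfam*, which packages the DNA, did not pass, at -0.04 and -0.02.

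Of 22 genes for processing and decay of mitochondrial RNA, 0 were higher and 2 were lower (0 and 4 at an unadjusted p under 0.05 in edgeR, 0 and 1 in DESeq2). The lower genes were 9.09% of the list, beside 13.4% lower and 18.1% higher among all genes tested. *Elac2*, which cuts tRNAs free at their 3′ end, had 2476, 2676 and 2202 counts in WT and 1757, 1857 and 1689 in *Abat* cKO. Its log2 fold change was -0.32 ± 0.04 (SE), with an adjusted p of 0.000231 in edgeR, and it passed under 16 of 17 alternatives, all but the scaling to mitochondrial mRNAs (adjusted p = 0.28), where the log2 fold change was -0.27. *Tbrg4*, a FASTK family protein of mitochondrial RNA, had a log2 fold change of -0.11 (adjusted p = 0.0465 in edgeR) and passed under 6 of 17. No relation between *Elac2* and *mt-Tt* was tested.

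Of 25 genes that modify mitochondrial tRNA or rRNA, 0 were higher and 3 were lower (1 and 6 at an unadjusted p under 0.05 in edgeR, 0 and 2 in DESeq2). The share of lower genes in this list was below the 13.4% among all genes tested, of which 18.1% were higher. The 3 lower genes were *Qtrt2*, a subunit of the queuine transferase, at -0.25, *Mettl17*, a factor of the small ribosomal subunit, at -0.30, and *Mrm3*, which methylates the large rRNA, at -0.26. They passed under 15, 12 and 11 of the 17 alternatives. Of 17 genes for replication of mitochondrial DNA and its nucleotide supply, 2 were higher and 3 were lower, which is 29.4% called beside 31.5% of all genes. *Rrm2b*, a ribonucleotide reductase subunit, had a log2 fold change of 0.36 and passed under all 17 alternatives. *Polg2*, the accessory subunit of the DNA polymerase, fell by 0.46 on the log2 scale, with 206, 273 and 252 counts in WT and 165, 167 and 147 in *Abat* cKO, and passed under 16. *Lig3* and *Primpol* had log2 fold changes of -0.22 and -0.16, and *Dna2* of 0.15. *Lig3* passed under 15 of 17, *Primpol* under 5 and *Dna2* under 7.

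The nuclear subunits of the complexes that the mitochondrial mRNAs belong to were tested as 72 genes, of which 4 were higher and 6 lower, while 62 did not pass. That is 13.9% called, beside 31.5% of all genes, and the median log2 fold change was 0.00. Of 36 subunits of complex I, *Ndufa13* was higher (0.18) and *Ndufa11* (-0.23) and *Ndufs7* (-0.18) were lower. Of 9 subunits of complex III, *Uqcrq* was higher (0.40) and *Uqcrh* was lower (-0.19). Of 11 subunits of complex IV, *Cox7b* was lower (-0.15). Of 16 genes of complex V, the inhibitor *Atpif1* was higher, at 0.57 with an adjusted p of 0.000126 in edgeR, as was *Atp5g1* (0.14), and *Atp5c1* (-0.20) and *Atp5d* (-0.19) were lower. *Atpif1* and *Uqcrq* passed under all 17 alternatives, and the others under 7 to 15.

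**Figure D5:**
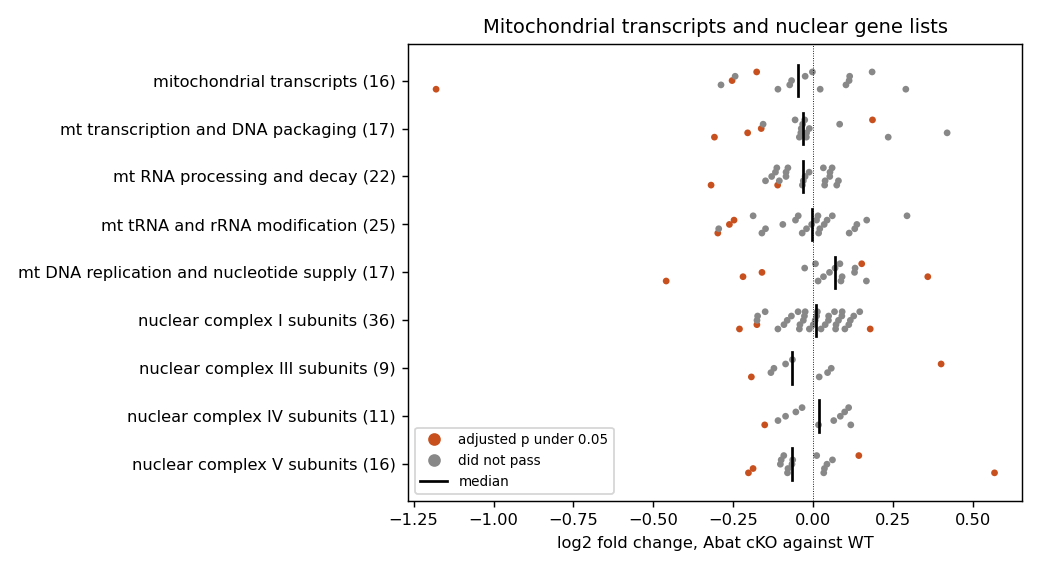
Log2 fold change in *Abat* cKO against WT (horizontal axis) of each tested mitochondrial transcript and of each tested gene in 8 nuclear lists (rows, with the number tested), with genes at an adjusted p under 0.05 in orange, the others in grey and a black bar at each median. The medians lie between -0.07 and 0.07, and *mt-Tt* at -1.18 is the lowest value in any row.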

How the data were processed

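Total RNA was depleted of rRNA and sequenced for 3 WT and 3 *Abat* cKO samples. The authors deposited raw counts per gene in 1 table with spike-in controls, which were kept out of library sizes and tests. The study's methods name TopHat2 and HTSeq on GRCm38, and the submitters' notes name Trim Galore 0.60, STAR 2.7 and RSEM 1.31, so which made the counts, and how reads with several matches or on either strand were treated, is not settled here. Further columns, which hold the authors' normalized signal (raw counts divided by 1 size factor per sample), their log2 fold changes and their adjusted p-values from DESeq2, were deposited beside the counts and were not used here.

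The counts were fitted with edgeR 4.0.16 in R 4.3.3 (filterByExpr by genotype, TMM scaling, quasi-likelihood test with genotype as the only term, Benjamini-Hochberg adjustment over 13605 genes). The standard error is the log2 fold change divided by the square root of the F statistic. CPM is counts per 1000000 gene counts, and CPM per kilobase divides it by the gene length in the deposited table. The fit was run on simulated data with the same spread for all genes. The planted changes were larger than those of *mt-Nd1* and *mt-Nd2*, so the run does not bear on those calls. Positions, types and sequences are those of GENCODE M21 on GRCm38, in which all 37 identifiers were found. Windows of 100 bases, taken on the strand of each mitochondrial gene, were searched in the nuclear transcripts on both strands. The study calls the samples independent biological samples. Same-numbered samples were not paired. Alternatives were other scalings (DESeq2's size factors, library size alone, TMM without mitochondrial rows, spike-in counts, the summed counts of the 13 mitochondrial mRNAs), DESeq2 1.42.0, other filters, the replicate number as a block, an adjusted p under 0.01 and leaving out each sample. Leaving out both samples that stood apart and adding the pseudogene counts were chosen after seeing the data. For a single gene these fits made 17 alternatives, and the threshold of 0.01, applied to the reported fit, was not among them. The 13 mRNAs and 2 rRNAs, the tRNAs that were tested or held at least 10 counts in every sample, and up to 4 genes of each list by adjusted p with 1 in the other direction are named, and *mt-Te*, *mt-Ty*, *Polrmt*, *Tfam*, the pseudogenes and the tRNAs inside the copied stretch were named after their values were seen. The members and lists were chosen with earlier results of these data known.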

Additional observations from a re-analysis of the deposited data

How the results depend on the processing

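The lower level of *mt-Tt* passed under every alternative run, and the number of changed tRNAs was 1 when any replicate was left out. Scaled to the spike-in counts, 2524 of all genes, 1 mitochondrial transcript, 0 mitochondrial mRNAs, 5 genes of the expression machinery and 2 nuclear respiratory chain genes changed, against 4290, 3, 2, 14 and 10 in the reported comparison. Scaled to the mitochondrial mRNAs, these numbers were 2045, 1, 0, 1 and 2. At an adjusted p under 0.01 they were 2682 genes, 1 mitochondrial mRNA, 5 machinery genes and 3 respiratory chain genes. DESeq2 called 8 of the machinery genes, beside 25.7% of all genes. When WT replicate 3 was left out together with *Abat* cKO replicate 1, a setting chosen after seeing the data, 5088 of all genes, 5 mitochondrial transcripts, 4 of them mRNAs, 17 machinery genes and 18 respiratory chain genes changed. With each replicate left out in turn, the changed genes ranged from 3248 to 4498, mitochondrial transcripts from 2 to 5, mRNAs from 1 to 4, machinery genes from 7 to 13 and respiratory chain genes from 6 to 10. The difference in mitochondrial share of counts ranged from -0.0798 to 0.00376 percentage points, and that of *mt-Nd6* against the other 12 mRNAs from 0.0800 to 0.272. The cause of these shifts was not tested. Deviations of same-numbered samples from their group means correlated at -0.29, 0.12 and -0.28, and no sample correlated best with its own number. With the replicate number as a block 3444 genes changed and 3 mitochondrial transcripts were still lower, *mt-Tt* with an adjusted p of 0.00435, *mt-Nd1* with 0.0147 and *mt-Nd2* with 0.0368 in edgeR. No direction of a called result reversed. Counts under 10 limit what can be said of 19 of the 37 transcripts, and the rRNAs could not be compared at all.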

Other observations

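Other abundant noncoding RNAs were counted beside the mitochondrial RNAs. Of 14 such genes present, 11 were tested, 1 rose and 1 fell in *Abat* cKO, which is 18.2% called beside 31.5% of all genes. The median log2 fold change was 0.00. *Terc*, the RNA template of telomerase, had 292, 351 and 341 counts in WT and 483, 497 and 496 in *Abat* cKO, with no overlap, a log2 fold change of 0.73 and an adjusted p of 0.000135 in edgeR, and it passed under all 17 alternatives. *Malat1*, a nuclear noncoding RNA, had 47160, 53122 and 50275 counts in WT and 37045, 40136 and 32655 in *Abat* cKO, which gave a log2 fold change of -0.31 and an adjusted p of 0.00235 in edgeR, and it passed under 16. *Rmrp* and *Rpph1*, the RNA parts of RNase MRP and nuclear RNase P, were at 0 counts in all 6 samples, as were *mt-Rnr1* and *mt-Rnr2*.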
